A study of Mus musculus with 4 samples.

Results

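The genes described are 9 genes of red blood cells and their precursors, measured in CD4 T cells sorted from mouse spleen: the globin genes Hbb-bs, Hbb-bt, Hba-a1 and Hba-a2, the heme synthesis gene Alas2, the membrane protein gene Slc4a1, the transcription factor gene Klf1 and the carbonic anhydrase genes Car1 and Car2. They were found by symbol, 9 of 9, among 16230 genes of the table, and were listed as red cell genes with earlier results of these data known. The libraries came from CD4 T cells sorted from spleens of colitic Rag-/- mice, which make no T or B cells of their own, 8 weeks after the mice were injected with sorted naive CD4 T cells. In 2 libraries, called controls 1 and 2, the donor cells carried the ERafl/fl alleles, in which part of the estrogen receptor α gene Esr1 is flanked by loxP sites. In the other 2, called CD4cre 1 and 2, the donors were CD4creERafl/fl, with the same flanked alleles and a Cre recombinase driven from Cd4, which acts in T cells. The labels describe the host, whose cells include the red cells, only as Rag-/-. Age and sex of the mice are not labelled, nor is it stated whether libraries of the same group are from separate mice, so a p-value here reflects no more than library-to-library spread, which may be technical.

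Adult hemoglobin is a tetramer of a pair of α-globin and a pair of β-globin chains, each holding a heme. Erythroid precursors make these chains in very large amounts, and in adult mice under inflammation or anemia the spleen is a site of red cell production beside the bone marrow. Maturing reticulocytes have lost their nucleus but still hold globin messenger RNA, while T cells are not known as a source of it. Bulk RNA measures all cells of a sorted sample together, so fewer cells of a type and less RNA per cell cannot be told apart.

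Levels are given in FPKM (fragments per unit of transcript length and of depth) as the authors deposited them. From the steps between low values, libraries of 704000 (control 1), 670000 (control 2), 507000 (CD4cre 1) and 562000 fragments (CD4cre 2) were estimated. Esr1 was at 0.23 FPKM in control 1, listed at 0 in control 2 and CD4cre 1, and at 1.96 FPKM in CD4cre 2. These values cannot verify the genotypes, so the groups are called by label only. The T cell receptor chain Cd3e was found in every library, at 65.5 FPKM in control 1, 60.2 in control 2, 9.81 in CD4cre 1 and 10.1 in CD4cre 2. Of the T cell markers listed, 10 were in the table and 0 of these were at 0 in any library.

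All 9 genes were lowest in control 1, where 23.5% of the 12896 genes tested were, and in 8 of them control 1 lay at least 2 units of log2(FPKM + 1) below each of the other 3 libraries. A gap of that size was seen in 1.87% of the genes tested. The highest library was control 2 for 5 of the 9 genes, against 23.4% of all genes, and CD4cre 1 for the other 4. The exception was Klf1, which was also low in CD4cre 2. The difference from control 1 was chosen for description with these results known, sets 1 library against 3, and has no test.

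Hbb-bs, an adult β-globin gene (NCBI gene 100503605, GRCm38 chromosome 7, 103826523 to 103827928, minus strand), had 83.3 FPKM in control 1, 3579 in control 2, 2744 in CD4cre 1 and 2227 in CD4cre 2. Control 1 stood apart and the other 3 libraries lay within 0.68 log2 units of each other, with control 2 the highest. By level Hbb-bs ranked 845 of all genes in control 1, but 7, 9 and 14 in the other 3 libraries. On its 628-base transcript these values correspond to an estimated 35.3, 1446, 839 and 755 fragments. The ratio of control 2 to control 1 was 43.0, with an exact 95% interval for counting error of 31.1 to 62.6.

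Hbb-bt, the second adult β-globin gene of the locus (NCBI gene 101488143, chromosome 7, 103812524 to 103813923), had 26.4 FPKM in control 1, 723 in control 2, 527 in CD4cre 1 and 385 in CD4cre 2. The order of the 4 libraries was that of Hbb-bs. Control 2 was 27.3 times control 1 (exact 95% interval for counting error 15.3 to 50.3).

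Hba-a1, an α-globin gene (NCBI gene 15122, chromosome 11, 32283672 to 32284486, plus strand), had 98.0 FPKM in control 1, 3354 in control 2, 2558 in CD4cre 1 and 2283 in CD4cre 2. Again control 1 was far below the others, and the 2 libraries labelled CD4cre differed by only 0.16 log2 units. Control 2 was 34.2 times control 1 (exact 95% interval for counting error 25.8 to 47.5). Its neighbour Hba-a2 (NCBI gene 110257) lies on chromosome 11, 32296492 to 32297310. It was listed at 0 in control 1 and had 364 FPKM in control 2, 510 in CD4cre 1 and 94.2 in CD4cre 2. Unlike Hba-a1, it was highest in CD4cre 1 and was 5.42 times lower in CD4cre 2, so the α-globin genes did not keep to 1 order.

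The coding sequences of each pair are almost the same, which bears on how a fragment is assigned to either gene. Between Hbb-bs and Hbb-bt 1 of 444 coding bases differs, and between Hba-a1 and Hba-a2 1 of 429, in the GENCODE M21 transcripts. Counted from the A of the start codon, the substitutions are C417T and C381T, with the base of Hbb-bs or Hba-a1 first. They stand in capitals in these windows of 61 coding bases, shown because the rest of each window is identical.
Hbb-bs: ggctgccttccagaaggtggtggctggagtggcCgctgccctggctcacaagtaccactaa
Hbb-bt: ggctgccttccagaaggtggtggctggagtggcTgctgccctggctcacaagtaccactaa
Hba-a1: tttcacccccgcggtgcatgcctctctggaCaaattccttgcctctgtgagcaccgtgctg
Hba-a2: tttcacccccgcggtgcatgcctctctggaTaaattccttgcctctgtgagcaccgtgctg

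Of all 50-base windows of the Hba-a2 transcript, 86.9% occur unchanged in Hba-a1, and of those of Hba-a1 67.5% occur in Hba-a2. For Hbb-bs and Hbb-bt the shares were 65.8% and 58.3%. No other gene's transcript held a window of any of the 4. Fragments from such windows are divided between the copies by estimate, so the split within a pair, and the 0 of Hba-a2 in control 1, are uncertain, while the sum of a pair does not depend on that split but for the lengths used. Hba-a2 made up 0%, 9.78%, 16.6% and 3.96% of the α-globin FPKM in control 1, control 2 and CD4cre 1 and 2. Hbb-bt made up 24.1%, 16.8%, 16.1% and 14.7% of the β-globin FPKM.

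Summed over each pair, β-globin stood at 110 FPKM in control 1, 4302 in control 2, 3271 in CD4cre 1 and 2611 in CD4cre 2. The α-globin sums were 98.0, 3718, 3068 and 2377 FPKM in the same order. The ratio of α to β stayed between 0.864 and 0.938 in all 4 libraries, control 1 included at 0.893, although the globin sum differed 38.6-fold between the controls. The 4 globin genes held 0.0467% of all FPKM in control 1, 1.78% in control 2, and 1.42% and 1.11% in CD4cre 1 and 2.

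**Figure D1:**
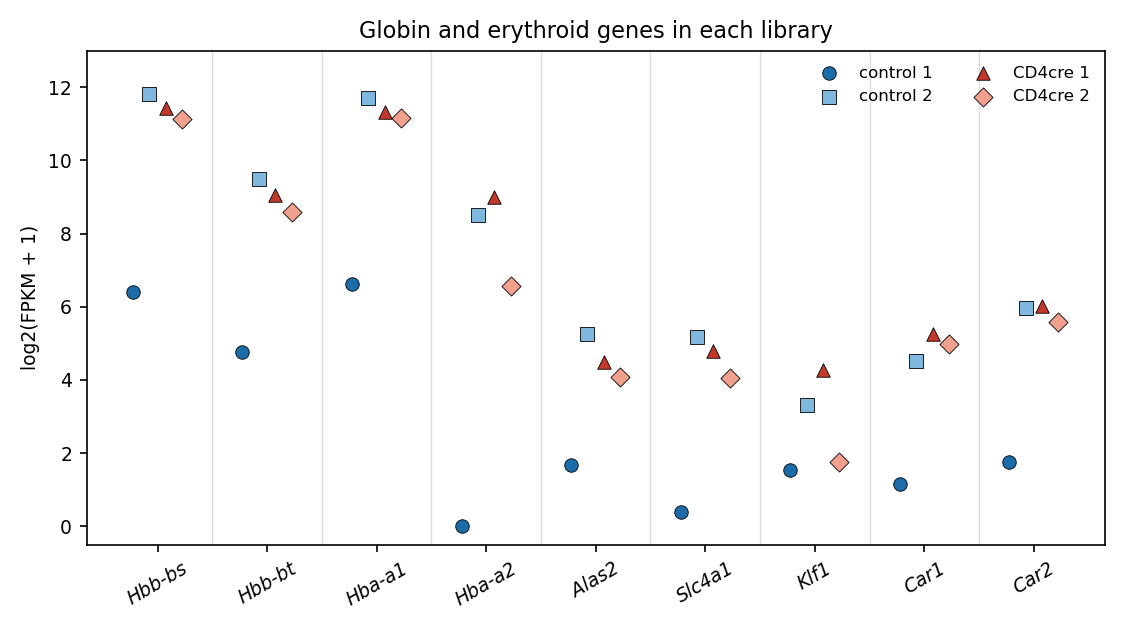
Level of each of the 9 genes as log2(FPKM + 1) in each of the 4 libraries, 1 point per library. The circles of control 1 lie lowest for every gene, and Klf1 is the gene in which CD4cre 2 lies close to control 1.

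Alas2 encodes the erythroid form of 5-aminolevulinate synthase, which catalyses the first and rate-limiting step of heme synthesis in red cell precursors. It had 2.22 FPKM in control 1, 37.2 in control 2, 21.7 in CD4cre 1 and 15.8 in CD4cre 2. The libraries fell in the same order as for Hbb-bs, with control 1 again apart. Control 1 rested on an estimated 3.14 fragments, and the ratio of control 2 to control 1 of 16.8 had an exact 95% interval for counting error of 5.66 to 87.8. Alas2 (NCBI gene 11656) lies on chromosome X, 150547417 to 150570622, and its exons overlap those of Apex2 on the opposite strand over 311 bases and Mir3620 over 61. No source used here states whether counting took strand into account, so within those bases its fragments and theirs cannot be separated.

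Slc4a1 encodes band 3, the chloride and bicarbonate exchanger of the red cell membrane, to which the membrane skeleton is anchored. It had 0.31 FPKM in control 1, 34.8 in control 2, 26.8 in CD4cre 1 and 15.5 in CD4cre 2. Control 1 rested on about 1 fragment of a 4545-base transcript, against 105 in control 2. Their ratio of 112 had an exact 95% interval of 19.4 to 4399, so its lower end is what these counts hold. The gene (NCBI gene 20533) lies on chromosome 11, 102348820 to 102365281, on the minus strand.

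Klf1 encodes a zinc finger factor that drives β-globin and other erythroid genes by binding CACCC motifs in their promoters. It had 1.88 FPKM in control 1, 8.89 in control 2, 18.3 in CD4cre 1 and 2.35 in CD4cre 2. It did not follow the globins: CD4cre 1 was the highest, and CD4cre 2 was near control 1. These values correspond to an estimated 1.99, 8.96, 14.0 and 1.99 fragments. The interval of the ratio of control 2 to control 1, 0.979 to 45.0, includes no difference at this depth, while that of CD4cre 1 to 2, 1.78 to 70.3, does not (exact 95% intervals for counting error). Klf1 (NCBI gene 16596) lies on chromosome 8, 84901982 to 84905291.

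Car1 and Car2 encode cytosolic carbonic anhydrases, which convert carbon dioxide to bicarbonate in red cells, though both are also made in other tissues. Car1 (NCBI gene 12346, chromosome 3, 14766214 to 14808365) had 1.23 FPKM in control 1, 21.9 in control 2, 37.2 in CD4cre 1 and 30.4 in CD4cre 2. It was the only 1 of the 9 genes in which both libraries labelled CD4cre lay above both controls. Control 1 rested on about 1.01 fragments, and 13.9% of the 50-base windows of Car1 occur in the gene Gm5843, so the value is uncertain. Car2 (NCBI gene 12349, chromosome 3, 14886269 to 14900770) had 2.39 FPKM in control 1, 61.0 in control 2, 64.3 in CD4cre 1 and 46.8 in CD4cre 2. Its 3 higher libraries were the closest together of all 9 genes, within 0.45 log2 units, and overlapped between the groups.

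The comparison that the labels state is between the groups, and 0 of the 9 genes passed it. In limma on log2(FPKM + 1), 0.0155% of the 12896 genes tested passed with higher and 0.0388% with lower values (adjusted p under 0.05), so 0 of 9 lies near that background. All 9 passed the filter of a mean of at least 1 FPKM, and all 9 had a higher log2 mean in the libraries labelled CD4cre, where 46.4% of all genes did. Their log2 fold changes ran from 0.59 to 3.53 with a median of 1.95, against -0.07 over all genes tested. Adjusted p lay between 0.371 and 0.805 in limma, and 0 of the 9 had an unadjusted p under 0.05, against 15.9% of all genes tested.

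In FPKM the controls differed more from each other than the libraries labelled CD4cre did for all of the 9 genes but Hba-a2 and Klf1. For Hbb-bs the control mean was 1831 ± 2472 FPKM and the CD4cre mean 2485 ± 366 (SD, n = 2), with a log2 fold change of 2.17 ± 1.63 (SE, adjusted p = 0.555 in limma). Hba-a1 had 1726 ± 2303 and 2420 ± 194 FPKM (SD, n = 2), with a log2 fold change of 2.07 ± 1.53 (SE, adjusted p = 0.553 in limma). For Alas2 the means were 19.7 ± 24.7 FPKM among controls and 18.7 ± 4.18 among CD4cre libraries (SD, n = 2), so its mean FPKM was lower in the libraries labelled CD4cre while its log2 fold change was 0.81 ± 1.13 (SE, adjusted p = 0.756 in limma). Car1 had the smallest unadjusted p of the 9 genes (0.079) and a log2 fold change of 2.28 ± 1.06 (SE, adjusted p = 0.371 in limma). Both CD4cre libraries lay above both controls for 1 of the 9 genes, Car1, and for 23.2% of all genes tested, and below both for 0 of the 9 and 25.7%.

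The direction of the contrast depended on control 1 for all of the 9 genes but Car1. Without it, 8 of the 9 genes had lower values in the libraries labelled CD4cre and only Car1 higher. The median log2 fold change was -0.53, where the median of all genes tested was -0.06. The share of all genes that were lower without control 1 was not counted. Hbb-bs then had -0.53 (adjusted p = 0.698 in limma), Hba-a1 -0.47, Alas2 -0.97 and Slc4a1 -0.74, and Car1 0.60. Without control 2 all 9 were higher, with a median of 4.04. Neither setting brought an adjusted p under 0.05 for any of the 9, and the smallest was 0.581 without control 1 and 0.273 without control 2 in limma. In these fits the lone control is assumed to vary like the libraries of the other group. The fit without control 2 sets control 1 alone against the libraries labelled CD4cre. The gap of control 1 was chosen for description with these results known, so the count of 8 genes below restates that gap. Each of the counts that follow rests on a lone control and cannot test the difference between the groups. At an unadjusted p under 0.05 there were 0 of the 9 without control 1, against 9.44% of all genes tested, and 8 without control 2, against 12.3%.

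**Figure D2:**
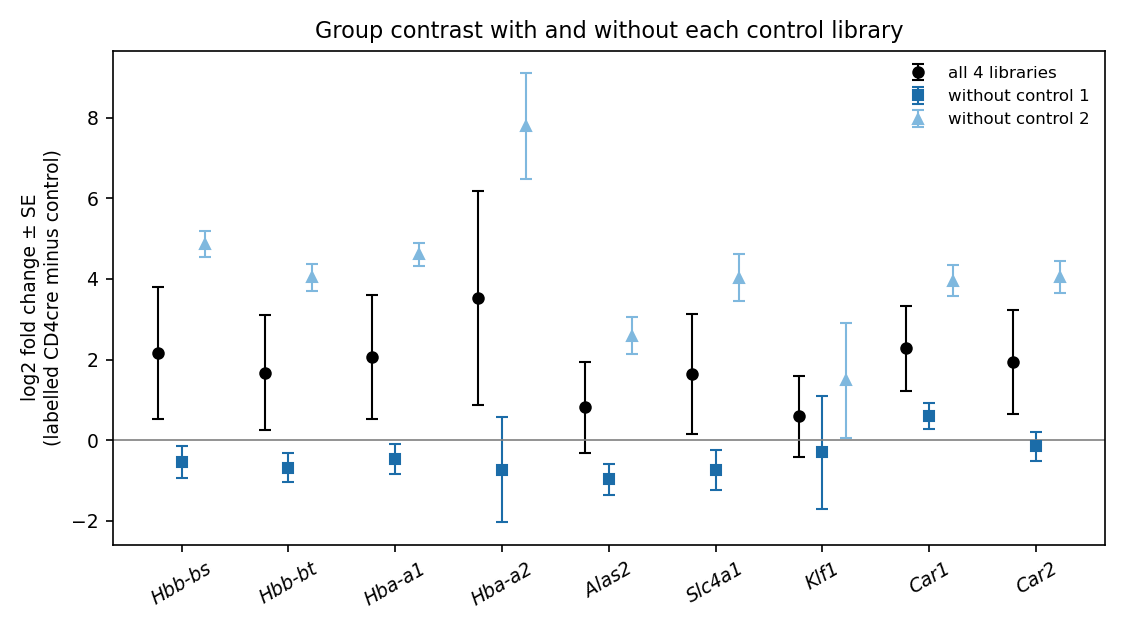
Log2 fold change of each gene (libraries labelled CD4cre minus control, log2(FPKM + 1) scale) with its SE from limma, over all 4 libraries and without either control. Without control 1 the points of 8 genes lie below 0 and that of Car1 at 0.60, and without control 2 all lie above 0.

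The larger difference was that between the controls themselves. The median over the 9 genes of control 2 minus control 1 was 4.72 on log2(FPKM + 1), from 1.78 for Klf1 to 8.51 for Hba-a2, where the median of all genes tested was 0.00. A difference of at least 2 was found for 8 of the 9 genes and for 3.62% of all genes tested. The libraries labelled CD4cre differed less: CD4cre 2 was lower than CD4cre 1 for all 9 genes, by a median of -0.45, where the median of all genes was 0.10. The drop reached 2 for 2 of the 9, Hba-a2 (-2.43) and Klf1 (-2.53), and for 2.3% of all genes. The Hba-a2 values, 8.51 and -2.43, depend on the uncertain split from Hba-a1. The α-globin sum was 3068 FPKM in CD4cre 1 and 2377 in CD4cre 2. Klf1 rested on an estimated 14.0 fragments in CD4cre 1 and 1.99 in CD4cre 2. The differences within each group set 1 library against another and have no replicate check. Control 1 had the highest estimated depth of the 4 libraries and total FPKM was alike in all, between 444640 and 450656.

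Set against the globin sum of the same library, Alas2, Slc4a1, Car1 and Car2 kept to a narrower range than their levels did, while Klf1 did not. Car2 amounted to 1.15% of the globin FPKM in control 1, 0.76% in control 2, 1.01% in CD4cre 1 and 0.938% in CD4cre 2. Slc4a1 amounted to 0.149%, 0.434%, 0.422% and 0.311% in the same order, and Alas2 to 1.07%, 0.464%, 0.342% and 0.316%. The values of control 1 rest on 1 to 3 fragments each. Klf1 varied most, from 0.0471% in CD4cre 2 to 0.905% in control 1.

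The promoters are shown because Klf1 and the GATA factors are known to act through short motifs upstream of erythroid genes. RefSeq promoters on GRCm38.p6 were at hand for 6 of the 9 genes. The 250 bases before the annotated start are printed for 5 of them, 5′ to 3′ on the gene's strand. Capitals mark GATAA, the core that GATA factors bind, and CACCC, which Klf1 binds, each also as its reverse complement. They mark in the same way the general promoter element CCAAT and the core promoter element TATAA.
Hbb-bs, chr7:103827929-103828178, minus strand: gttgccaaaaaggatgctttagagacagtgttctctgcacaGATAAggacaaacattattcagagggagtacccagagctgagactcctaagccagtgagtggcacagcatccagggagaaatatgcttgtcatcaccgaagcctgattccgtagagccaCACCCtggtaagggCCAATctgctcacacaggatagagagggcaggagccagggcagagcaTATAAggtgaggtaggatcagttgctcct
Hbb-bt, chr7:103813924-103814173, minus strand: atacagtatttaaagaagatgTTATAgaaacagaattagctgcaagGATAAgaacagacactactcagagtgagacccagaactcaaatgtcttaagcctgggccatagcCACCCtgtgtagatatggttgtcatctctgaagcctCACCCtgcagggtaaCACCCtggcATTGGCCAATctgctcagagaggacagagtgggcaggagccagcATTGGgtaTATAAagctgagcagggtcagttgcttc
Hba-a1, chr11:32283422-32283671, plus strand: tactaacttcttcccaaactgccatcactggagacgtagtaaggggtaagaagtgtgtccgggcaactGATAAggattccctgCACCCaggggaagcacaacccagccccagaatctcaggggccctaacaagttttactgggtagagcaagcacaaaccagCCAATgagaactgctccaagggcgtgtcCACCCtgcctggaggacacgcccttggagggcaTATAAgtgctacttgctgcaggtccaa
Alas2, chrX:150547167-150547416, plus strand: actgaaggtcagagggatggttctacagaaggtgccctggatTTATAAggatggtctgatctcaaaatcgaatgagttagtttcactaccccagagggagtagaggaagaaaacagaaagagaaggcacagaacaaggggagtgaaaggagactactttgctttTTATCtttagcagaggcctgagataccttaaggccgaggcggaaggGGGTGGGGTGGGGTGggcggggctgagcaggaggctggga
Klf1, chr8:84901732-84901981, plus strand: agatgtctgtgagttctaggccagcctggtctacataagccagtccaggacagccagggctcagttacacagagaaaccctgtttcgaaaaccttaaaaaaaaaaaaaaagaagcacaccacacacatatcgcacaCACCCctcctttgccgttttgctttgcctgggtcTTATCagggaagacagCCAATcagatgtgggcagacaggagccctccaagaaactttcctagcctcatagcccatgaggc

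The promoter of Hba-a2 (chromosome 11, 32296242 to 32296491) is the same as that of Hba-a1 over 247 of 247 bases when displaced by 3, and so is not printed. GATAA was found in 6 of 6 promoters, once in each, where 22.6% of 32851 promoter entries of this length hold it. CACCC was found in 6 of 6, from 1 copy in Hbb-bs and Klf1 to 3 in Hbb-bt and Alas2, where 52.0% of entries hold it. In both β-globin promoters a CACCC and a CCAAT stand 9 bases apart, at positions -90 and -76 from the start in Hbb-bs and -89 and -75 in Hbb-bt, counting the first base of each motif. TATAA stood at -29 in Hbb-bs, -28 in Hbb-bt and -27 in Hba-a1, and was not among the letters of the Klf1 window. CCAAT was found in 5 of 6 (33.8% of entries), and no match of 1 motif overlapped a match of another. A match describes the letters only: binding was not measured here, and a link of the motifs to the levels was not tested.

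Other genes of the red cell pathways were read from 8 lists, by role, with 98 genes in the table and 88 tested. None of the 88 passed in limma, 7 had an unadjusted p under 0.05 where 15.9% of all genes tested did, and the smallest adjusted p was 0.123. By their levels, 49 of the 88 were lowest in control 1, where 23.5% of all genes tested were. Of the 88, 17 lay at least 2 log2 units lower in control 1 than in each other library, where the background was 1.87%. The counts by list below have these same backgrounds. A difference of at least 2 between the controls was found for 25 of the 88 in favour of control 2 and for 0 in favour of control 1.

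Among globins and their partners, Ahsp, which encodes the chaperone of free α-globin, had its libraries in the order of Hbb-bs. It had 3.08 FPKM in control 1, 175 in control 2, 167 in CD4cre 1 and 123 in CD4cre 2. Relative to the globin sum it was 1.48%, 2.18%, 2.64% and 2.47%. The embryonic and other globins listed were in the table for Hbq1b alone, which was at 2.08 FPKM in control 2 and listed at 0 in the other libraries.

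Of the 8 other heme synthesis genes 4 were lowest in control 1 and 2 of these by at least 2 log2 units. Fech, which inserts iron to complete heme, had 1.97 FPKM in control 1 and 12.9, 14.4 and 15.4 in control 2 and CD4cre 1 and 2. Control 1 stood apart in Fech, while Urod, an enzyme acting before Fech in the pathway, was high everywhere, at 321, 261, 465 and 313 FPKM. Cpox had 7.52 FPKM in control 1 and 20.3, 22.4 and 17.5 in the others, and overlaps Gpr15 on the opposite strand over 204 bases. Iron uptake and mitochondrial transport genes differed less: 9 of 13 were lowest in control 1, 1 of them by at least 2. Tfrc, the transferrin receptor, had 5.20 FPKM in control 1 and 23.3, 9.64 and 13.7 in the others.

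Of 22 tested genes of the red cell membrane and skeleton 15 were lowest in control 1, and 3 by at least 2 log2 units. The 4 with the highest means, Tmod1, Ermap, Cd47 and Epb41, were not among these 3. Tmod1, which caps actin filaments, had 391, 398, 409 and 404 FPKM, and shares 1287 bases of exon with Tstd2 on the opposite strand. Late maturation genes and red cell enzymes had 12 of 17 lowest in control 1 and 7 by at least 2. Prdx2, a peroxidase abundant in red cells, had 16.0 FPKM in control 1 and 45.0, 28.5 and 50.01 in the others. It overlaps Junb over 173 bases and Rnaseh2a over 177, both on the opposite strand.

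The transcription factors and the receptor pathway upstream of erythroid genes did not share 1 order of the libraries. Of 12 tested transcription factor genes 5 were lowest in control 1, 2 of them, Lmo2 and Bcl11a, by at least 2 log2 units, and the median difference between the controls was 0.12. Gata1, the erythroid GATA factor, was listed at 0 in control 1 and had 3.96, 7.36 and 2.83 FPKM in control 2 and CD4cre 1 and 2. It was chosen after its values were seen, as the partner of the GATAA motif. Lmo2, a partner of GATA1 in erythroid complexes, was listed at 0 in control 1 and had 11.9, 14.2 and 14.0 FPKM in the others, so control 1 stood apart as it did for the globins. Ikzf1 and Ldb1, which T cells also use, were the highest in control 1, at 63.6 and 64.6 FPKM, and the lowest in the libraries labelled CD4cre, at 20.8 and 26.4, and 31.2 and 32.6. Ldb1 overlaps Pprc1 on the opposite strand over 177 bases. In the erythropoietin receptor list 2 of 9 were lowest in control 1, 1 of them by at least 2 log2 units. Of 7 tested other carbonic anhydrases 2 were lowest there, 0 by at least 2. Both counts of 2 lie near the 23.5% of all genes tested that were lowest in control 1. Car5a, a mitochondrial carbonic anhydrase, had 48.0 FPKM in control 1, 41.8 in control 2, 123 in CD4cre 1 and 90.1 in CD4cre 2, without overlap (limma: 1.22 ± 0.31 log2 units, SE, adjusted p = 0.179). It overlaps BC048644 on the opposite strand over 314 bases.

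The genes with the most similar profile over the 4 libraries were taken from 4960 other genes with a mean of at least 10 FPKM. Likeness was the root mean square distance between profiles of log2(FPKM + 1), each centred on its own mean, to the mean profile of the 9 genes. The 10 nearest lay within a distance of 0.46, where the median gene lay at 1.95, and included Aqp1, Rnase6, Bex6, Cox7c, Hemgn, Ahsp, Lmo2 and Cd24a. Of the 10, 6 were in the red cell lists, which held 0.887% of the candidate genes. The mean profile holds the gap of control 1, and the lists were fixed with earlier results of these data known. This count is therefore a description and no test. Aqp1, the water channel of red cells, was listed at 0 in control 1 and had 17.9, 15.1 and 14.2 FPKM in the others. Cox7c, a subunit of cytochrome c oxidase used by nearly all cells, was listed at 0 in control 1 and had 23.8, 43.1 and 13.3 FPKM in the others. Its pseudogene copy Gm10012 was high in every library, at 4432, 5583, 5489 and 5298 FPKM. A 0 in this table may thus be a failed assignment, which was not tested. Of the 9 genes themselves, Hba-a2 and Klf1 lay farthest from their mean profile, at 1.71 and 1.32.

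Markers of macrophages, which in the red pulp of the spleen take up aged red cells, had the libraries in another order. All 16 listed were lowest in control 1, where 23.5% of all genes tested were. For 13 of them the gap was at least 2 log2 units, where the background was 1.87%. So the large gap of control 1 was not particular to the red cell genes. The summed FPKM of the 16 was 39.6 in control 1, 358 in control 2, 2377 in CD4cre 1 and 2181 in CD4cre 2. The sum of the 9 red cell genes was 216, 8184, 6507 and 5099 FPKM, highest in control 2 where the macrophage sum was less than either library labelled CD4cre. In control 1, 5 of the 16 macrophage markers were listed at 0, and 0 in any other library. Hmox1, the heme oxygenase, had 7.94, 41.7, 399 and 453 FPKM. Of 11 neutrophil markers 10 were lowest in control 1, 2 of them by at least 2 log2 units. The 11 summed to 1873, 4215, 5538 and 7634 FPKM, with Ly6g and Elane at 0 in control 1 alone. T cell markers summed to 1481, 1231, 391 and 308 FPKM, 0 of 10 being lowest in control 1. Platelet markers stayed low, with sums of 18.6 to 46.6 FPKM. These sums hide unlike orders. Gp1ba was highest in control 1, with 36.1, 9.87, 16.0 and 16.3 FPKM. Clec1b had 0, 2.61, 17.0 and 15.3 FPKM, and was the only 1 of 5 tested that was lowest in control 1. Genes of dividing cells were highest in control 2 for 7 of 8, where 23.4% of all genes tested were, and lowest in control 1 for 1. The median of control 2 minus control 1 was 1.53 log2 units. Their sums of 1342, 1468, 1216 and 963 FPKM were mostly Tyms, at 1258, 1184, 1150 and 870. Tyms was the listed gene not highest in control 2, so the sums do not show the difference of the other 7. The part of these other cells in the red cell values was not tested.

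**Figure D3:**
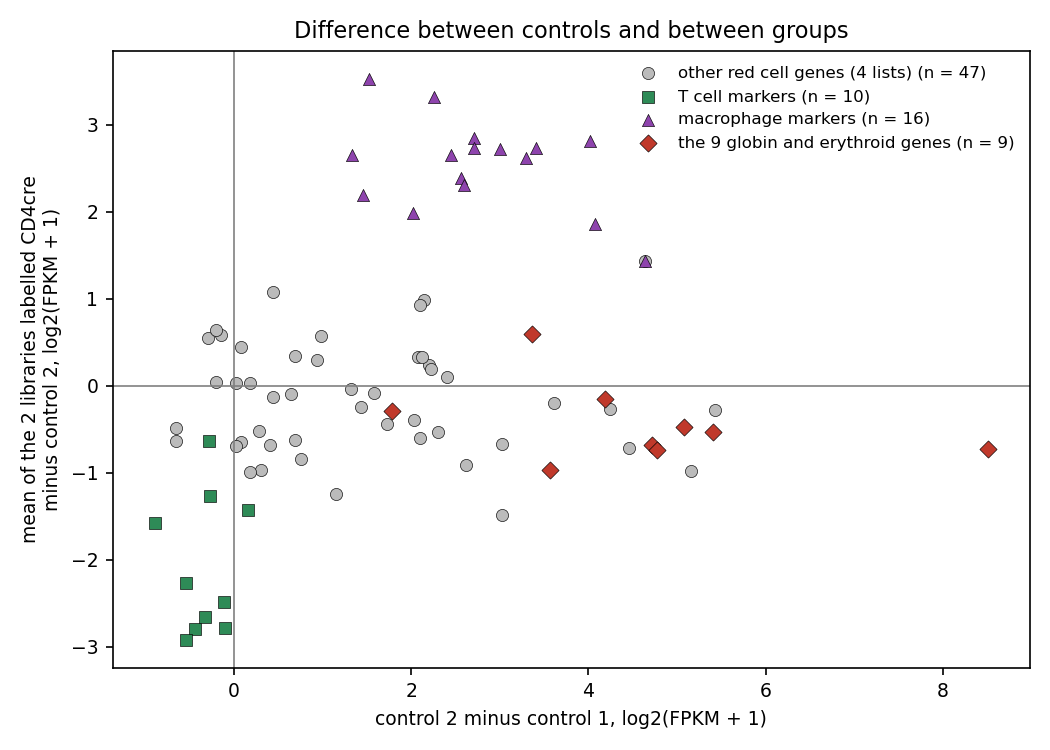
Each point is a gene, placed by control 2 minus control 1 (horizontal) and by the mean of the libraries labelled CD4cre minus control 2 (vertical), both on log2(FPKM + 1). The 9 red cell genes lie at 1.78 to 8.51 on the horizontal axis and, but for Car1, below 0 on the vertical, macrophage markers lie above 0 on both axes, and T cell markers lie below 0 on the vertical axis; 1 gene, Blvrb, is in a red cell list and in the macrophage list.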

How the data were processed

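RNA of 4 libraries of sorted CD4 T cells was sequenced. The authors deposited 1 table of FPKM values for 16230 genes, with 1 column per library. HISAT, Bowtie2, RSEM and the build mm10 are named, without versions or settings, per the submitters' processing notes. Of the gene identifiers, 16183 matched RefSeq on GRCm38.p6, which carries the mm10 coordinates, among them all 9 described.

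Fragments were estimated from the FPKM steps of 10331 genes with 1 transcript over 800 bases (GENCODE M21 lengths less 25 bases). At the best depth 66.7% to 68.0% of low values came within 0.1 of a whole number of fragments, compared with 15.8% to 22.9% at random depths. Intervals from these depths hold for counting error alone.

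Genes with a mean of at least 1 FPKM entered a linear model of log2(FPKM + 1) (limma 3.58.1, R 4.3.3), two-sided, with group as the only term, a trend and Benjamini-Hochberg adjustment over all 12896 genes tested. The scale understates changes of low genes. A single gene tested by exact permutation could not go under p = 0.333 with 4 libraries, so none is given. The fit was also run on simulated data with the same spread in both groups. That run does not cover genes whose controls differ as widely as here. The genes and lists were chosen with earlier results of these data known. Named from each list were up to 4 genes with the highest mean FPKM, and others by the stated distance rule, and all 9 described. Gata1, Bcl11a, Ly6g and Elane fall outside this rule and were named after their values were seen. Libraries share replicate numbers, but same-numbered libraries did not deviate together (correlation across genes -0.0016), and were not paired. Some genes of the lists and of the nearest profiles are not reported here by name.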

Additional observations from a re-analysis of the deposited data

How the results depend on the processing

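Of the 9 genes, 0 passed limma's threshold in either direction under every alternative run: a pseudocount of 0.1, no filter, a mean of at least 5 FPKM, median-ratio or quantile scaling, rescaling without the 9 genes, no trend, the replicate block, and leaving out each library. The same held with 2 settings added after the data were seen, globin pairs summed and voom weights on estimated fragments (7 genes). With all 4 libraries every log2 fold change was above 0 under these settings. Leaving out 1 library gave ranges of -0.53 to 4.88 for Hbb-bs, -0.68 to 4.04 for Hbb-bt, -0.47 to 4.61 for Hba-a1, -0.72 to 7.79 for Hba-a2, -0.97 to 2.60 for Alas2, -0.74 to 4.03 for Slc4a1, -0.67 to 1.86 for Klf1, 0.60 to 3.96 for Car1 and -0.15 to 4.04 for Car2. The values below 0 came without control 1, and for Klf1 also without CD4cre 1.

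Over all genes limma called 2 higher and 5 lower. With a pseudocount of 0.1, no filter, no trend, the replicate block or any 1 library left out it called 0 in each direction (range 0 to 0 for the last), with 1813, 2190, 1996, 1888 and 1212 to 2066 genes at an unadjusted p under 0.05. A mean of at least 5 FPKM gave 0 higher and 4 lower (1447 at an unadjusted p under 0.05), quantile scaling 1 higher and 5 lower, and voom weights 148 higher and 51 lower of 6562 tested. The cause of these changes was not tested. The replicate block changed no call among the 9 genes. At an estimated 1 to 3 fragments, the levels of Alas2, Slc4a1, Klf1, Car1 and Car2 in control 1 are limited by depth.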
